A study of Mus musculus with 31 samples.

Results

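The 43 mitosis genes described here encode the machinery that divides a nucleus and a cell: mitotic cyclins and kinases, the chromosomal passenger complex, kinetochores, the spindle checkpoint, the anaphase-promoting machinery, spindle motors, the central spindle and chromosome condensation. They were listed by name, with earlier results of these data known. Each of the 43 symbols was found among the 48881 gene rows of the deposited RNA-seq count tables. All 43 passed the filter on low counts in the thymocyte cultures and in the fit that set thymic innate cells beside them. In lung cells 40 passed, and Aurka, Nek2 and Cdc20 did not.

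The study followed thymocyte precursors of C57BL/6 mice after loss of the E proteins E2A (gene Tcf3) and HEB (gene Tcf12), transcription factors of the basic helix-loop-helix family that direct early T cell development. Floxed cultures carried R26-CreERT2, R26-stop-tdTomato and E2Af/fHEBf/f, and control cultures carried R26-CreERT2 and R26-stop-tdTomato only, so the tamoxifen-activated recombinase and the reporter were in both. DN1 or DN3 thymocytes, an earlier and a later stage of precursors that lack CD4 and CD8, were grown on OP9-DL1 stromal cells, which present a Notch ligand, in medium with stem cell factor and the cytokines IL-2 and IL-7. Cultures were sampled on days 4, 5 and 7, with 2 libraries per precursor, genotype and day (letters a and b for floxed, c and d for control), and 4-hydroxytamoxifen was given on day 4 by the day 5 labels and the DN3 day 7 labels. The DN1 day 7 labels place it on day 7, and the day 4 labels name none. The tdTomato+ cells were sorted on days 5 and 7, and day 4 cells were not sorted on the reporter. The other libraries came from type 2 innate lymphoid cells (ILC2): 2 from thymus and 2 from lung of mice carrying plck-Cre and E2Af/fHEBf/f (called dKO, the deletion being driven by a T cell promoter), and 3 from lung of plck-Id1 mice, whose transgene makes an inhibitor of E proteins. Of the 3 plck-Id1 libraries, 2 carry genotype labels that read plck-Id2 and plck-Id3. Nothing in the labels says that replicates were separate animals or cultures, so p-values measure only the spread between these libraries.

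Total counts were 5908459 to 10692186 per library in the 24 culture libraries, 4818443 and 5669876 in thymic ILC2, and 3695522 to 13065445 in lung ILC2. Floxed and control cultures differed in sex as well as genotype: Xist stood at 582 to 1930 CPM (counts scaled to a common library size) in floxed libraries and 4.48 to 68.3 in controls, and summed Y-linked genes at 0.521 to 26.8 and 76.4 to 187 CPM. Genotype and sex therefore cannot be told apart in any floxed against control value below, and Kif4 is itself on chromosome X. The targeted genes followed the labels: Tcf12 averaged 108 CPM in floxed and 273 in control DN1 cultures on day 7, and 160 CPM in floxed and 506 in control DN3 cultures. Summed markers of skeletal muscle reached 8730 CPM in DN1 floxed library b of day 7, against 71.7 in its partner a and 9.22 and 10 CPM in the controls, and values without library b are given beside the counts that rest on it. On day 4, before sorting, summed OP9 stromal markers stood at 8630 and 9680 CPM in floxed and 11200 and 11900 in control DN1 cultures, and at 3590 and 4120 CPM in floxed and 2370 and 2560 in control DN3 cultures. On days 5 and 7 they stood at 56.9 to 241 CPM.

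In a dividing cell, cyclin A and cyclin B activate Cdk1, which starts chromosome condensation, nuclear envelope breakdown and spindle assembly. The spindle checkpoint holds Cdc20 inactive until every kinetochore is attached, after which the anaphase-promoting complex marks securin and cyclin B for destruction and separase opens cohesin. These genes are transcribed mainly late in the cell cycle, through CCAAT boxes bound by NF-Y and through the cell cycle homology region (CHR), a TTTGAA or TTCGAA element bound by the MuvB complexes, with B-Myb and FoxM1 as activators and the DREAM complex as repressor. In the thymus, bursts of division accompany Notch and IL-7 signals in DN1 and DN2 cells and pre-T cell receptor signals after the DN3 stage, and the summed level of these genes is a common measure of cycling.

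The promoters of many members hold the letters of these elements. RefSeq promoter sequence (GRCm38.p6) was at hand for 36 of the 43 genes, and the 250 bases before the annotated start were searched on both strands for CCAAT, for TTTGAA or TTCGAA, and for the E box letters CAGCTG and CAGGTG that E proteins bind. CCAAT was found in 26 of the 36 (72.2%), against 37.5% of the 27025 genes in the RefSeq table, and 17 of the 36 (47.2%) held at least 2 matches, against 11.5% of all genes. A CHR was found in 13 (36.1%), against 19.6% of all genes. CCAAT and CHR stood together in 11 (30.6%), against 7.0% of all genes. The E box letters were found in 4 (11.1%), against 30.6% of all genes. A match is a description of letters, not a measured binding site. Birc5 and Nusap1, prominent in the results below, held neither CCAAT nor a CHR in these bases. The sequences below belong to other members named in the results, each with a CCAAT match: Cdk1 (chr10:69352913-69353162, minus strand), Ccnb2 (chr9:70421555-70421804, minus), Top2a (chr11:99024190-99024439, minus), Hmmr (chr11:40733438-40733687, minus), Plk1 (chr7:122159185-122159434, plus), Kif11 (chr19:37376132-37376381, plus) and Kif23 (chr9:61946800-61947049, minus). Each reads 5′ to 3′ toward the start, and capitals mark CCAAT or its complement ATTGG and the CHR letters TTTGAA (or the complement TTCAAA) and TTCGAA.
Cdk1: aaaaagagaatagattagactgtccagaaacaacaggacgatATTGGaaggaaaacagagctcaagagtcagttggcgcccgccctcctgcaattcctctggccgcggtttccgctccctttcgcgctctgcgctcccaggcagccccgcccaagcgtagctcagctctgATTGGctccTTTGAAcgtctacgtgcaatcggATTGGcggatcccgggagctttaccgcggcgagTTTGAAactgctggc
Ccnb2: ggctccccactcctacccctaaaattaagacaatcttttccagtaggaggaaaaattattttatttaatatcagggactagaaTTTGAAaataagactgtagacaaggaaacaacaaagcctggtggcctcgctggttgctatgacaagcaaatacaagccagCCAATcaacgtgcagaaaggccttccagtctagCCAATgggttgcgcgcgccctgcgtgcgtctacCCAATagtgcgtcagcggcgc
Top2a: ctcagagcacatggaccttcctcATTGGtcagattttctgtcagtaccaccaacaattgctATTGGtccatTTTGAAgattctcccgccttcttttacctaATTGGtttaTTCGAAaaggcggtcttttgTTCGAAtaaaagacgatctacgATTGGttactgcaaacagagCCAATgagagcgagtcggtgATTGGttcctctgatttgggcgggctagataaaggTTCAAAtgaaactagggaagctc
Hmmr: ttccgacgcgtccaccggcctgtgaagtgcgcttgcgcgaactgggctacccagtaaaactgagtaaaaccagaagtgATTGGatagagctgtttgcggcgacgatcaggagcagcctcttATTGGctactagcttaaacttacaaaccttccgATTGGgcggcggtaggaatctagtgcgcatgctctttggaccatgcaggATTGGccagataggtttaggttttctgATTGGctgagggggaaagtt
Plk1: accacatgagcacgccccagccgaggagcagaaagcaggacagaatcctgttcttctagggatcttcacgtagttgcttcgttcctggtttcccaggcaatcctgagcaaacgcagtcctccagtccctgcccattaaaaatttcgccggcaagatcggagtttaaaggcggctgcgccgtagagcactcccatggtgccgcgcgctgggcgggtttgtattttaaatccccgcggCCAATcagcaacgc
Kif11: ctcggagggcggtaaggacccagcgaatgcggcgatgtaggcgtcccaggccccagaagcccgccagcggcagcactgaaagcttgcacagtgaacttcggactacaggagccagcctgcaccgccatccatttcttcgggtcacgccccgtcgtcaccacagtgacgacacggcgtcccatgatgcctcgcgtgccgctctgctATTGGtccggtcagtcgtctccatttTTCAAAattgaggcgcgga
Kif23: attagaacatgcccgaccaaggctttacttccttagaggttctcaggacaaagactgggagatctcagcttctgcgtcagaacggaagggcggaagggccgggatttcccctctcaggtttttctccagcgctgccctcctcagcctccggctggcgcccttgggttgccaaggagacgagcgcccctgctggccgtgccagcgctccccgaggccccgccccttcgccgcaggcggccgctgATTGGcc

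The members differed widely in level. Per kilobase of their longest GENCODE M21 transcript, the mean over the 24 culture libraries was 233 CPM per kb for Top2a, the DNA topoisomerase that untangles sister chromatids, 155 for Birc5, the survivin subunit of the passenger complex, 131 for Plk1, the polo kinase, 111 for Cdk1 and 94.5 for Ube2c, the ubiquitin-conjugating enzyme of the anaphase-promoting complex. The lowest were Kif4, a chromokinesin, at 5.22, Anln, the anillin scaffold of the cleavage furrow, at 4.38 and Dlgap5, a spindle assembly factor, at 2.95 CPM per kb. Single-gene levels below are CPM compared across libraries, and sums over genes are named as such.

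Summed over the 43 genes, DN3 floxed cultures stood at 7330 and 7920 CPM on day 4, against 8840 and 8320 in control cultures. On day 5 the sums were 8530 and 7930 CPM in DN3 floxed cultures, against 12000 and 11600 in controls, and on day 7 they were 4330 and 4180 CPM, against 7740 and 8210. Every DN3 floxed library lay below both controls of its day. DN1 floxed cultures held 4460 and 4450 CPM on day 4, against 4290 and 4330 in controls. They held 6470 and 6930 CPM on day 5, against 7030 and 6930, and 4560 and 5030 CPM on day 7, against 5410 and 5740. In DN1 cultures both floxed sums lay above the controls on day 4 and below them on day 7, and on day 5 the higher floxed sum was level with the lower control at this rounding. In such bulk libraries fewer cycling cells and less RNA per cycling cell cannot be told apart.

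**Figure D1:**
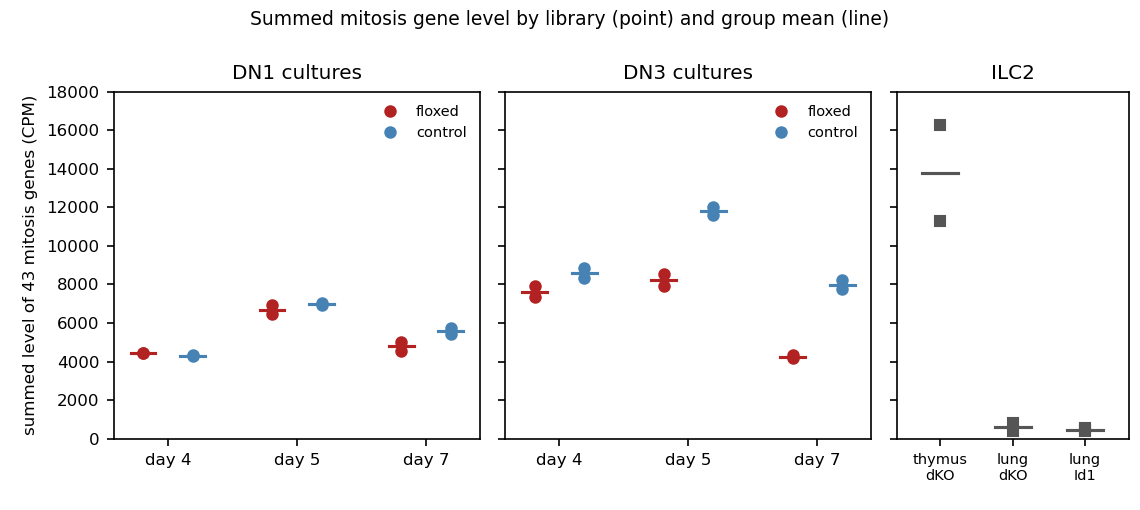
Summed CPM of the 43 genes in each library (points, with lines at the group means and a linear axis from 0), with floxed cultures left of their controls on days 4, 5 and 7 for DN1 and DN3, and a separate panel for thymic dKO, lung dKO and lung Id1 ILC2. DN3 floxed libraries sit at 4330 and 4180 CPM on day 7, below controls at 7740 and 8210, and thymic ILC2 sit at 16300 and 11300.

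The first comparison asked how the genes differed between floxed and control cultures of DN3 thymocytes. On day 7, 3 days after the day 4 dose, 39 of the 43 members were lower in floxed cultures (edgeR quasi-likelihood test, Benjamini-Hochberg adjusted p under 0.05) and none was higher, where 12% of the 15172 tested genes were lower and 12.9% higher. The member median was -0.86 on the log2 scale of floxed over control, and the members that passed ran from -2.30 (Plk1) to -0.48 (Racgap1). For 42 of the 43, both floxed libraries lay below both controls, where 32.3% of all tested genes did so. The 4 that did not pass were Nek2, Melk, Aurkb and Dlgap5. In each of the 4 refits that left out 1 library of the day, 33 of the 39 passed, and Plk1, Espl1, Bub1, Racgap1, Ect2 and Anln each missed in at least 1 of them.

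By role, 7 of 9 cyclins and kinases, 3 of 4 passenger complex genes, 6 of 6 kinetochore genes, 4 of 4 checkpoint genes, 3 of 3 anaphase genes, 7 of 8 spindle genes, 7 of 7 central spindle genes and both Top2a and Mki67 were lower in DN3 floxed cultures on day 7. Cdk1, the kinase that starts mitosis, had 337 and 284 CPM in floxed cultures, against 445 and 444 CPM in controls (-0.52 ± 0.11 SE, adjusted p = 0.0019). It changed less than its partners Ccna2 (-0.83 ± 0.11), Ccnb1 (-0.94 ± 0.10) and Ccnb2 (-0.98 ± 0.16), a difference between genes that was not itself tested. Birc5 had 312 and 297 CPM in floxed cultures, against 637 and 587 CPM in controls (-1.01 ± 0.09, adjusted p = 1.43e-07). Its floxed and control libraries were far apart, while the catalytic subunit of the same complex, Aurkb, overlapped, with 41.9 and 30.2 CPM in floxed and 41.1 and 50.7 CPM in control cultures.

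Cenpf, a large protein of the outer kinetochore, had 89.3 and 88.7 CPM in DN3 floxed cultures on day 7, against 239 and 240 CPM in controls (-1.43 ± 0.09, adjusted p = 5.05e-09), the smallest adjusted p among the members there. Cenpe, the kinetochore motor that carries chromosomes to the spindle equator, had 99.9 and 106 CPM, against 211 and 252 CPM (-1.17 ± 0.11). Cenpa, the histone variant that marks the centromere, had 146 CPM in both floxed libraries, against 232 and 221 CPM (-0.63 ± 0.09). Of the checkpoint genes, Ttk, the Mps1 kinase, had 33.0 and 32.4 CPM in floxed cultures, against 75.5 and 78.2 CPM in controls (-1.23 ± 0.12), and Bub1b, which encodes BubR1, had 78.9 and 71.6 CPM, against 134 and 144 CPM (-0.89 ± 0.13). Neither overlapped. Of the anaphase genes, Ube2c had 137 and 131 CPM in floxed cultures, against 267 and 296 CPM in controls (-1.07 ± 0.25, adjusted p = 0.00305).

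Among spindle genes in the same cultures, Nusap1, a microtubule-bundling protein of the spindle, had 156 and 162 CPM in floxed, against 386 and 439 CPM in control libraries (-1.38 ± 0.12, adjusted p = 1.52e-07). Kif11, the motor that pushes spindle poles apart, had 45.5 and 51.4 CPM, against 108 and 117 CPM (-1.21 ± 0.19). In the central spindle group, Prc1, which bundles antiparallel microtubules between the separating chromosomes, had 46.4 and 49.0 CPM in floxed cultures, against 103 and 118 CPM in controls (-1.21 ± 0.10, adjusted p = 1.42e-07). Kif23, the motor of the centralspindlin complex, and Kif20b, a kinesin of cytokinesis, fell by 1.17 ± 0.11 and 1.10 ± 0.19. Kif20a, the motor that brings the passenger complex to the midzone, fell by 0.63 ± 0.11. Top2a had 957 and 888 CPM in floxed cultures, against 1470 and 1640 CPM in controls (-0.75 ± 0.09, adjusted p = 3.03e-06). Mki67, the proliferation marker Ki-67, had 178 and 193 CPM, against 327 and 392 CPM (-0.95 ± 0.11).

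Plk1 had the largest log2 difference of any member on DN3 day 7, -2.30 ± 0.74 (adjusted p = 0.0276), and the least even replicates. Its floxed libraries a and b already lay below the controls on DN3 day 4, at 80.9 and 315 CPM against 479 and 450 CPM. On day 7 its levels were 39.6 and 119 CPM in floxed libraries a and b, against 393 and 392 CPM in controls. Floxed libraries did not overlap the controls, but differed 2.99-fold from each other. Without floxed library a the difference was -1.72 (adjusted p = 0.216), and without b it was -3.32 (adjusted p = 0.0356). Leaving out control c gave -2.30 (adjusted p = 0.0753), and leaving out control d gave the same size (adjusted p = 0.0889).

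**Figure D2:**
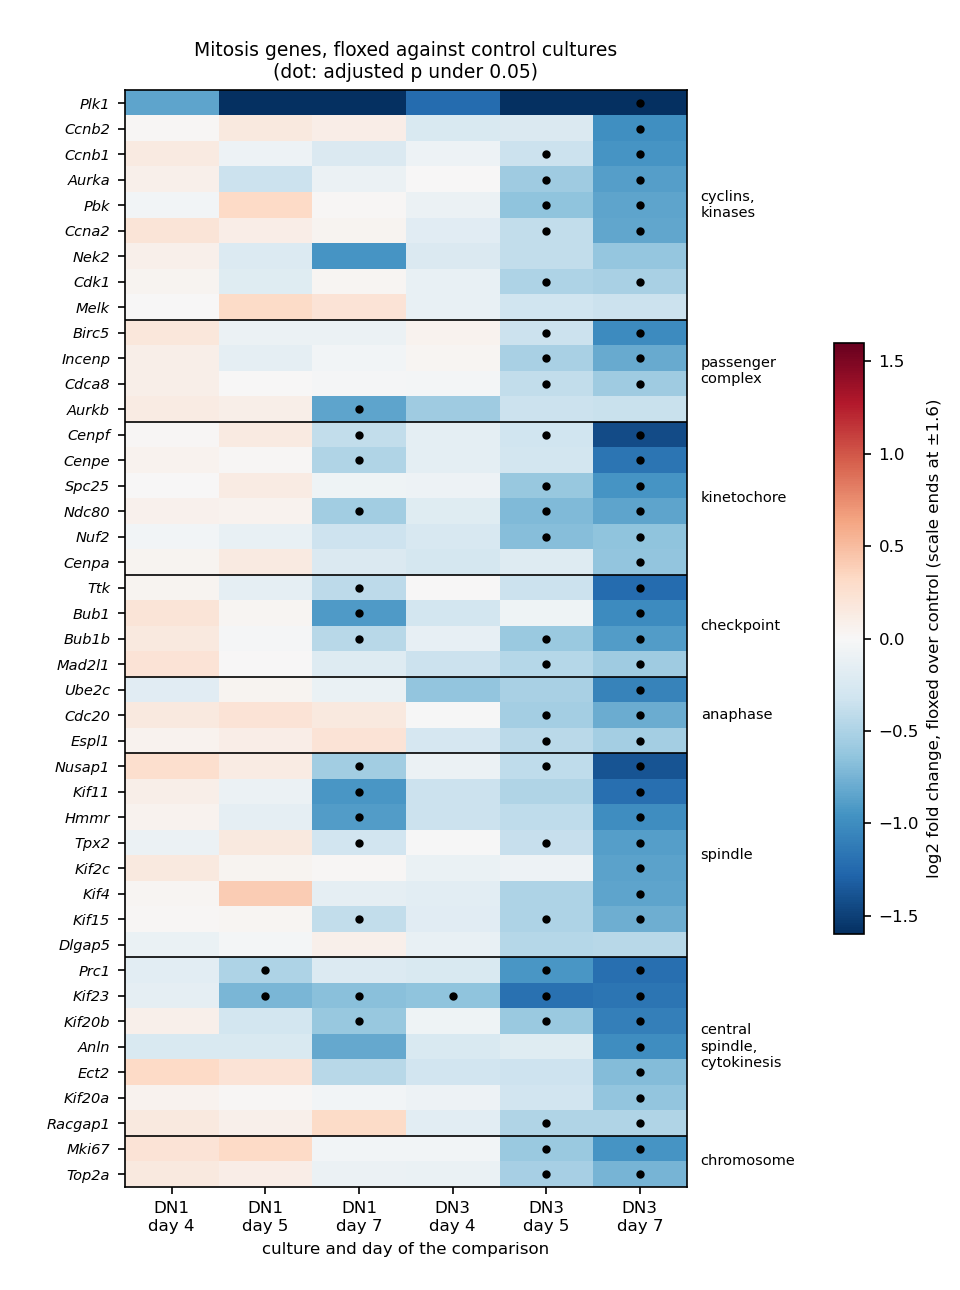
Log2 fold change of floxed over control cultures for the 43 genes (rows, grouped by role) in DN1 and DN3 cultures on days 4, 5 and 7 (columns), blue for lower and red for higher in floxed, with the colour scale ending at 1.6 on either side and dots where the adjusted p was under 0.05. Dots fill 39 of 43 rows in DN3 on day 7, 25 in DN3 on day 5, 14 in DN1 on day 7 and 0 in DN1 on day 4.

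On day 5, 1 day after the dose, 25 of the 43 members were already lower in DN3 floxed cultures and none was higher, where 5.2% of tested genes were lower and 4.56% higher. The median was -0.46, and 38 of 43 members had both floxed libraries below both controls, where 25.6% of all tested genes did so. This count leaned on single libraries: it was 7 without floxed b, 19 without floxed a, 12 without control d and 11 without control c, and 7 genes (Ndc80, Nuf2, Spc25, Kif23, Prc1, Top2a and Mki67) passed in all of these refits. Among the members that passed, Kif23 and Prc1, both of the central spindle, differed most. Kif23 had 74.2 and 64.8 CPM in floxed cultures, against 172 and 146 CPM in controls (-1.20 ± 0.11, adjusted p = 7.06e-07). Prc1 had 84.2 and 91.8 CPM, against 175 and 161 CPM (-0.93 ± 0.10, adjusted p = 6.5e-06). Neither gene's groups overlapped. Plk1 had a difference of -1.86 ± 0.71 that did not pass (adjusted p = 0.112), with 76.5 and 298 CPM in floxed cultures, against 761 and 600 CPM in controls.

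The other large day 5 differences that passed in DN3 cultures were in kinetochore genes and kinases. The 3 listed subunits of the Ndc80 complex, which couples kinetochores to microtubules, fell by 0.71 ± 0.13 (Ndc80), 0.68 ± 0.13 (Nuf2) and 0.61 ± 0.10 (Spc25). Pbk, a mitotic kinase, fell by 0.65 ± 0.15, Aurka, the kinase of the spindle poles, by 0.57 ± 0.12, Bub1b by 0.59 ± 0.13, Kif20b by 0.59 ± 0.18 and Mki67 by 0.60 ± 0.10. Of the abundant members, Top2a had 1590 and 1450 CPM in floxed cultures, against 2240 and 2160 CPM in controls (-0.53 ± 0.09), and Cdk1 had 619 and 522 CPM, against 876 and 740 CPM (-0.50 ± 0.11). Both sets were apart. Nusap1 (-0.41) and Birc5 (-0.34) passed as well. Cenpa (-0.21), Kif20a (-0.31) and Ube2c (-0.52) did not pass, and for Ube2c the floxed libraries overlapped the controls, at 385 and 180 CPM against 333 and 476 CPM.

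On day 4, whose labels name no dose, 1 member, Kif23, was lower in DN3 floxed cultures, where 0.25% of tested genes were lower and 0.191% higher. It had 69.0 and 69.5 CPM in floxed cultures, against 111 and 104 CPM in controls (-0.64 ± 0.11, adjusted p = 0.0049). The floxed pair lay below both controls, yet the call was lost without control c (adjusted p = 0.116), floxed a (0.0749) or floxed b (0.0839). The median of the 43 was -0.16, and 23 of 43 had both floxed libraries below both controls, where 17.3% of all tested genes did so. The anchors, the most abundant member of each role (Cdk1, Birc5, Cenpa, Bub1b, Ube2c, Nusap1, Kif20a and Top2a), did not pass on that day. Whether the floxed against control difference itself changed between days 4 and 7 was tested directly. It was more negative on day 7 for 26 members, where 6.28% of tested genes changed that way, and it was more positive for none, where 6.02% of tested genes did. Nusap1 (-1.28 ± 0.17), Cenpf (-1.27 ± 0.12), Ttk (-1.24 ± 0.17) and Birc5 (-1.06 ± 0.12) had the largest such changes. Cdk1, Cenpa and Ube2c did not pass. The count was 15 without control d or floxed b of day 4, 14 without control d of day 7, 15 without floxed b of day 7 and 17 without control c of day 4, and day 4 cells were unsorted and held more stroma.

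In DN1 cultures fewer members passed on each day. On day 4 no member passed in either direction, where 0.105% of tested genes passed. Of the members, 2 had an unadjusted p under 0.05, DESeq2 called 0, and the median was 0.06. Anchors lay between -0.18 (Ube2c) and 0.27 (Nusap1). On day 5, 2 members, both of the central spindle, were lower in DN1 floxed cultures, where 2.46% of tested genes were lower and 2.56% higher, and the median of the 43 was 0.03. Kif23 had 71.4 and 71.1 CPM in floxed cultures, against 114 and 123 CPM in controls (-0.73 ± 0.11, adjusted p = 0.000294), and Prc1 had 72.7 and 65.4 CPM, against 95.9 and 98.6 CPM (-0.49 ± 0.10, adjusted p = 0.00606). Neither overlapped its controls. Kif23 passed without any 1 of the 4 libraries, and Prc1 was lost without control d (adjusted p = 0.0678) or floxed b (adjusted p = 0.122).

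The DN1 day 7 labels place the dose on day 7. Summed targeted genes already stood at 158 and 159 CPM in DN1 floxed cultures on day 5, against 301 and 304 CPM in controls. On day 7, 14 of the 43 members were lower in DN1 floxed cultures and none was higher, where 10.3% of tested genes were lower and 12.2% higher. The median was -0.22, the members that passed ran from -0.93 to -0.31, and 25 of the 43 had both floxed libraries below both controls, where 27.4% of all tested genes did so. By role the 14 were 5 of 8 spindle genes, 3 of 4 checkpoint genes, 3 of 6 kinetochore genes, 2 of 7 central spindle genes and 1 of 4 passenger complex genes. None of the 9 cyclins and kinases or of the 3 anaphase genes passed, and neither Top2a nor Mki67 did. The count fell without floxed b, the library with muscle markers, without control d or without control c. Without floxed a it rose, and it then held members higher in floxed cultures as well as lower ones. The member median was -0.30 without floxed b, -0.19 without control d, -0.26 without control c and -0.17 without floxed a. Kif11, Nusap1 and Kif23 passed in every one of these refits, and with only the 4 libraries of that day in the fit none passed.

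Kif23 had 65.6 and 56.9 CPM in DN1 floxed cultures on day 7, against 99.9 and 94.6 CPM in controls (-0.67 ± 0.11, adjusted p = 0.000177). Nusap1 had 166 and 159 CPM, against 229 and 251 CPM (-0.56 ± 0.12, adjusted p = 0.00209). Both had even replicates that stood apart from the controls. Kif11 had 53.0 and 32.2 CPM in floxed cultures, against 83.8 and 78.6 CPM in controls (-0.93 ± 0.19, adjusted p = 0.00145). Without library b these 3 stood at -0.57 (adjusted p = 0.00442), -0.53 (0.0208) and -0.61 (0.0318). For several others library b was much the lower of the pair. Bub1, the checkpoint kinase, had 19.9 and 6.63 CPM in floxed a and b, against 29.4 and 20.8 CPM in controls (-0.91 ± 0.32, adjusted p = 0.0493). Hmmr, a spindle assembly protein, had 45.6 and 22.4 CPM, against 62.5 and 64.8 CPM (-0.90 ± 0.21), and Aurkb had 33.9 and 14.5 CPM, against 46.6 and 40.8 CPM (-0.85 ± 0.28, adjusted p = 0.038). Without library b none of the 3 passed: Bub1 stood at -0.33 (adjusted p = 0.511), Hmmr at -0.48 (0.0506) and Aurkb at -0.36 (0.44). In that group 5 members differed over 2-fold between a and b, against 0 to 2 members in the other groups. Kif20b fell by 0.61 ± 0.18, Ndc80 by 0.56 ± 0.14, Cenpe by 0.48 ± 0.11, Bub1b by 0.45 ± 0.13 and Ttk by 0.42 ± 0.12. Cenpf, Kif15 and Tpx2 also passed, at -0.39, -0.39 and -0.31. Without library b, Kif20b, Ndc80, Cenpe and Bub1b did not pass.

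Several abundant members did not pass in DN1 cultures on day 7. Cdk1 had 355 and 416 CPM in floxed cultures, against 349 and 404 CPM in controls (0.03), and Top2a had 917 and 920 CPM, against 936 and 1020 CPM (-0.09). Mki67 had 220 and 213 CPM, against 225 and 219 CPM (-0.04). Cdk1 and Mki67 overlapped between the genotypes. Birc5 (-0.09), Cenpa (-0.23), Ube2c (-0.11) and Kif20a (-0.04) did not pass. Plk1 had 36.6 and 154 CPM in floxed a and b, against 259 and 314 CPM in controls, and its difference of -1.59 ± 0.72 did not pass (adjusted p = 0.12). Between days 4 and 7 the difference became more negative for 7 members, where 3.61% of tested genes did so and 4.17% became more positive: Kif11 (-1.02 ± 0.26), Hmmr (-0.96 ± 0.29), Nusap1 (-0.83 ± 0.17), Bub1b (-0.61 ± 0.18), Cenpe (-0.53 ± 0.16), Kif23 (-0.52 ± 0.15) and Cenpf (-0.41 ± 0.12). That count was 15 without floxed a of day 7, 2 without its partner b, 3 without control d of day 4, and 1 without any other of the 8 libraries, with Nusap1 passing in each.

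**Figure D3:**
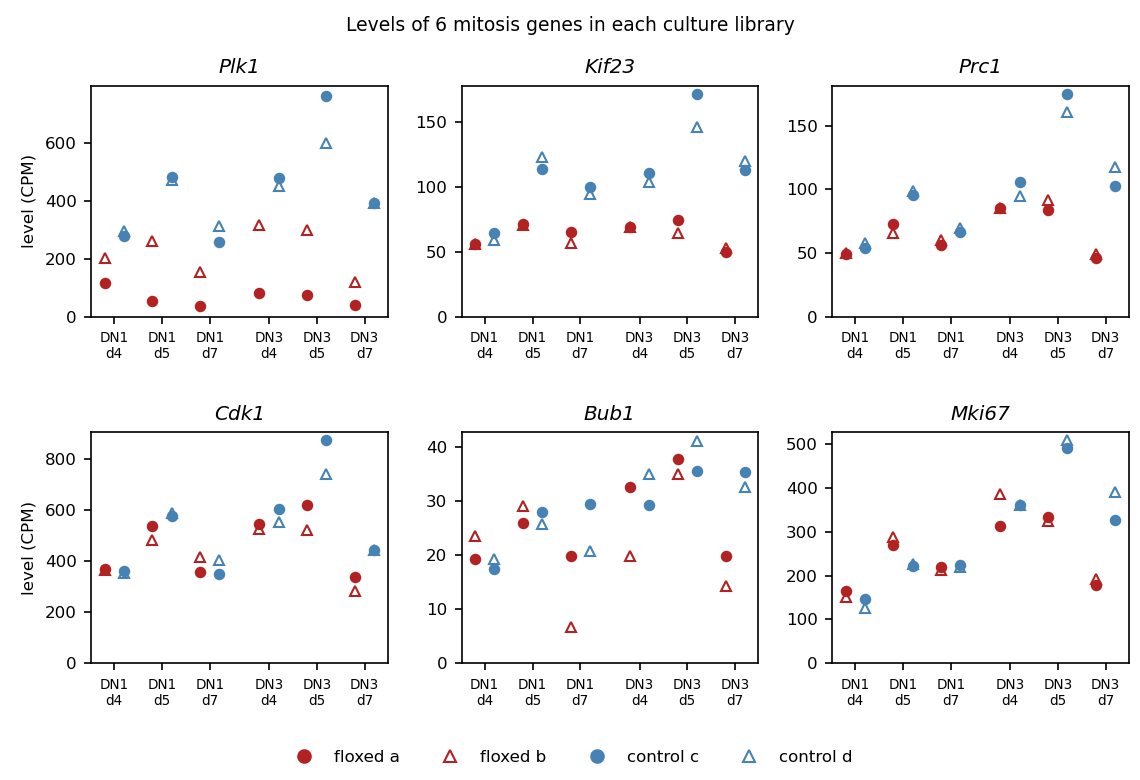
CPM of Plk1, Kif23, Prc1, Cdk1, Bub1 and Mki67 in each culture library by precursor and day, with floxed libraries (red, a as dots and b as triangles) left of controls (blue, c as dots and d as triangles). Kif23 on DN3 day 5 sits at 74.2 and 64.8 in floxed and 172 and 146 in control cultures, while Cdk1 on DN1 day 7 overlaps at 355 and 416 in floxed and 349 and 404 in control cultures.

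Markers of cell identity differed as well, and their sums were apart on day 5 too. Those of DN thymocytes then summed to 795 to 925 CPM in floxed and 1110 to 1210 in control DN1 cultures. In DN3 cultures they summed to 2950 to 3120 and 3960 to 4320 CPM. ILC2 markers summed to 330 to 660 and 197 to 208 CPM in DN1, and to 301 to 318 and 140 to 169 CPM in DN3 cultures. On day 7, 8 of 9 markers of DN thymocytes were lower in floxed cultures of each precursor, and their sum was 769 to 836 CPM in floxed and 1720 to 1730 in control DN1 cultures, and 1510 to 1720 in floxed and 4430 in both control DN3 cultures. Of 10 ILC2 markers 8 could be tested, 4 were higher in floxed cultures of either precursor and 1 was lower in DN3. Their sum was 1470 to 1540 CPM in floxed and 253 to 290 in control DN1 cultures, and 1080 to 1310 in floxed and 222 to 289 in control DN3 cultures. Il1rl1, the IL-33 receptor that defines mature ILC2, did not exceed 1.12 CPM in any day 7 culture. All 8 muscle markers were higher in DN1 floxed cultures on day 7 and none was in DN3. The part of these markers in the mitosis gene values was not tested.

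Kif23 and Prc1, both of the central spindle, were lower in floxed cultures of both precursors on day 5, and Kif23 passed in 5 of the 6 comparisons of genotype. On day 7 the libraries of DN1 and DN3 are separate: 13 members were lower in both, which is 92.9% of the 14 called in DN1 and 33.3% of the 39 called in DN3. Since 90.7% of all 43 were lower in DN3, the first share is close to that of the members as a whole. Over all tested genes, 626 were lower in both, which is 40% of the 1564 lower in DN1 and 34.5% of the 1816 lower in DN3. A test of the difference between precursors asked whether the floxed over control change was the same in both, with labels that place the dose on day 7 in DN1 and on day 4 in DN3. On day 7 it was less negative in DN1 for 24 of the 43 members and more negative for none, where 3.81% of tested genes were less negative or more positive in DN1 and 3.98% the reverse, with a member median of 0.67. The members that passed ran from 0.51 to 1.08. By role these were 6 of 9 cyclins and kinases, 3 of 4 passenger complex genes, 3 of 6 kinetochore genes, 1 of 4 checkpoint genes, 2 of 3 anaphase genes, 3 of 8 spindle genes, 4 of 7 central spindle genes and both Top2a and Mki67.

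The largest difference was that of Ccnb2, a B-type cyclin. On day 7 it had 57.2 and 91.8 CPM in floxed and 68.8 and 69.5 CPM in control DN1 cultures, and 56.0 and 47.2 CPM in floxed and 98.1 and 104 CPM in control DN3 cultures (difference 1.08 ± 0.22, adjusted p = 0.00506). The DN1 groups overlapped and the DN3 groups did not. Cenpf (1.04 ± 0.12), Prc1 (0.99 ± 0.15), Cdc20, the activator of the anaphase-promoting complex (0.95 ± 0.25), Birc5 (0.92 ± 0.12), Mki67 (0.92 ± 0.15), Kif2c, a microtubule depolymerase (0.88 ± 0.22), Ccna2 (0.87 ± 0.16), Spc25 (0.87 ± 0.15) and Pbk (0.86 ± 0.23) followed. Nusap1 (0.82 ± 0.17), Top2a (0.67 ± 0.12), Kif20a (0.59 ± 0.16) and Cdk1 (0.55 ± 0.16) passed, and Cenpa, Bub1b and Ube2c did not. Bub1, Kif11 and Hmmr, which were lower in floxed cultures of both precursors, did not pass this test. The count of 24 was 10 with only the groups compared in the fit. It fell without any single library other than DN1 floxed a, and most without DN1 control c. Without DN1 floxed a it rose, and not all members then passed in the same direction. The member median was 0.55 without DN1 floxed b, 0.74 without DN1 floxed a and 0.58 without DN1 control c. It was 0.57 without DN3 control d and 0.60 without DN3 floxed b.

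**Figure D4:**
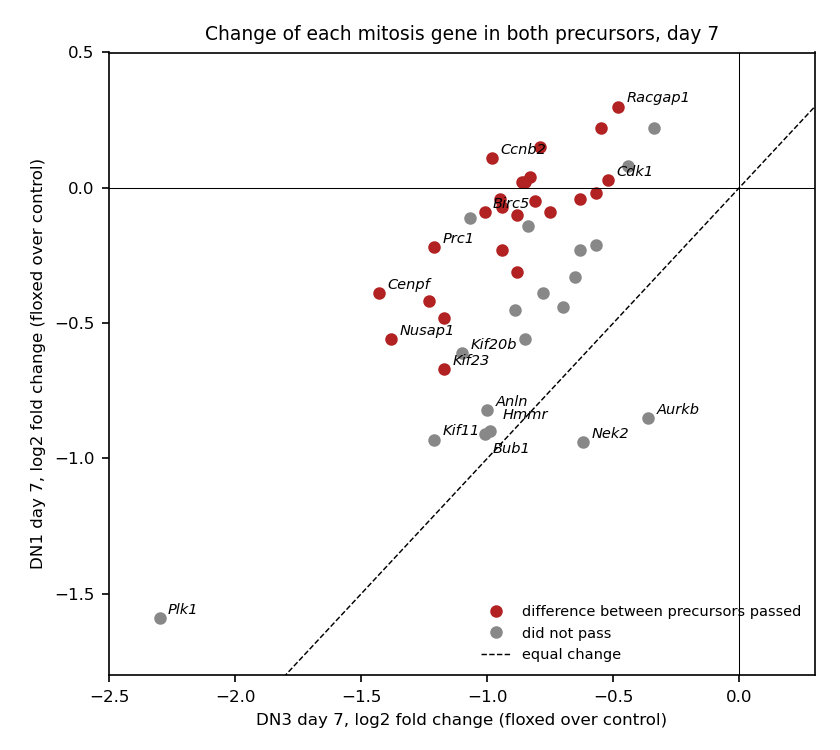
Log2 fold change of floxed over control on day 7 for each of the 43 genes, DN1 cultures on the vertical axis and DN3 cultures on the horizontal axis, with the dashed line marking equal change and red points the 24 genes whose difference between precursors passed. All 24 red points lie above the line.

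The drop from day 5 to day 7 was measured within each genotype. These comparisons share libraries with those above, so they are given as values of their own. In DN3 floxed cultures 38 of the 43 members were lower on day 7 than on day 5, where 10.9% of tested genes were lower and 13.6% higher, with a median of -1.0. In DN3 control cultures 28 were lower, where 9.73% of tested genes were lower and 10.5% higher, with a median of -0.53. In DN1 floxed cultures 29 were lower (9.47% of tested genes lower and 12% higher, median -0.53), and in DN1 control cultures 11 were lower (6.65% of tested genes lower and 6.45% higher, median -0.27). No member was higher on day 7 in any of the 4.

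Bub1b had the largest drop over time of any member in DN3 cultures: 78.9 and 71.6 CPM on day 7 and 223 and 185 CPM on day 5 in floxed cultures (-1.44 ± 0.13), and 134 and 144 CPM on day 7 and 289 and 325 CPM on day 5 in controls (-1.14 ± 0.13). Ccnb1, the cyclin that activates Cdk1 at mitotic entry, fell by 1.42 ± 0.10 in DN3 floxed and 0.83 ± 0.10 in DN3 control cultures, and Ccna2 by 1.36 ± 0.11 and 0.92 ± 0.11. Cdk1 fell by 0.88 ± 0.11 in DN3 floxed and 0.86 ± 0.11 in DN3 control cultures. The pair of values is close for Cdk1 and apart for Birc5, which fell by 1.13 ± 0.09 in floxed and 0.46 ± 0.09 in control cultures. In DN1 floxed cultures Anln fell by 1.14 ± 0.34, Aurkb by 1.10 ± 0.28, Hmmr by 1.05 ± 0.21, Bub1 by 1.04 ± 0.32 and Kif11 by 1.01 ± 0.19. Without floxed b of day 7, Hmmr (-0.63, adjusted p = 0.0129) and Kif11 (-0.70, 0.0187) passed, and Anln (-0.86, 0.197), Aurkb (-0.62, 0.136) and Bub1 (-0.47, 0.305) did not. The DN1 control drop was led by Aurka (-0.68 ± 0.13), Cdk1 (-0.63 ± 0.11), Ccnb1 (-0.59 ± 0.10) and Ccna2 (-0.55 ± 0.11). The DN1 floxed count was 18 without floxed b of day 5 and 24 without floxed b of day 7, and the DN1 control count was 6 without control c or d of day 5 or control c of day 7. With only the libraries compared in the fit, the DN1 floxed count was 0 and the DN1 control count 25.

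Among controls, DN1 cultures carried less of these transcripts than DN3 cultures. On day 5, 36 of the 43 members were lower in DN1 than in DN3 controls, where 14.5% of tested genes were lower and 15.5% higher, with a median of -0.69, and on day 7, 21 were lower, where 11.2% were and 11.4% were higher, with a median of -0.44. None was higher on either day. On day 5, Top2a had 1140 and 1090 CPM in DN1 controls, against 2240 and 2160 CPM in DN3 controls (-0.98 ± 0.09, adjusted p = 7.49e-08). Mki67 had 221 and 227 CPM, against 491 and 509 CPM (-1.16 ± 0.11). Racgap1, the centralspindlin partner of Kif23, had 84.8 and 79.7 CPM in DN1 controls, against 186 and 188 CPM in DN3 controls (-1.19 ± 0.15). None of these overlapped. Cdc20 (-1.19 ± 0.17), Spc25 (-1.18 ± 0.11), Pbk and Bub1b (both -1.12) were also among the largest. On day 7 the largest were Cenpf (-0.92 ± 0.09), Ube2c (-0.92 ± 0.24), Nusap1 (-0.78 ± 0.12), Kif2c (-0.73 ± 0.15), Birc5, Prc1 and Mki67 (each -0.70), and Cdk1, Bub1b and Kif20a did not pass. The day 7 count was 12 without DN1 control c and 13 without DN3 control d. DN1 floxed and DN1 control sums on day 7 (4560 to 5740 CPM) both lay between those of DN3 floxed (4180 and 4330 CPM) and DN3 control cultures (7740 and 8210 CPM).

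Other genes of the division cycle were counted from lists kept apart from the 43, to be read against all tested genes, of which 12% were lower and 12.9% higher on DN3 day 7, 5.2% and 4.56% on DN3 day 5, and 10.3% and 12.2% on DN1 day 7. Of 80 other mitosis genes, 60 were lower and 1 higher in DN3 floxed cultures on day 7 (median -0.78), led by Ska1, a kinetochore coupling protein (-1.51), 34 were lower on day 5 (median -0.42), and 26 (32.5%) were lower in DN1 floxed cultures on day 7 (median -0.27), or 12 without floxed library b. Of 28 genes of S phase, 25 were lower in DN3 floxed cultures on day 5 (median -0.59), with Ccne2, an E-type cyclin (-1.17), Pole, the leading-strand DNA polymerase (-0.89), and Rrm2, a subunit of ribonucleotide reductase (-0.84), among them, and 20 on day 7 (median -0.56). In DN1 floxed cultures on day 7, 3 S phase genes (10.7%) were lower and 2 (7.14%) higher, close to the shares of all tested genes (median -0.09). Without floxed library b, 0 passed by edgeR and 5 had an unadjusted p under 0.05, and Fen1, the flap endonuclease, stood at -0.45 (adjusted p = 0.266), against -0.92 with it. Of 20 listed transcription factors of the cycle, 7 were lower in DN3 floxed cultures on day 5 and 8 on day 7. In DN1 floxed cultures on day 7, 4 were lower and 1 higher, or 1 lower and 1 higher without library b. In DN3 floxed cultures E2f7, a repressor of the E2F family, changed by -1.56 on day 5 and -1.11 on day 7. E2f2, an activator, changed by -1.19 and -1.45 there, and its difference of -0.05 in DN1 cultures on day 7 did not pass. Mybl2, which encodes B-Myb, fell by 0.87 on DN3 day 5 and 0.88 on DN3 day 7, and by 0.67 in DN1 floxed cultures on day 7 (-0.75 without library b). Foxm1 averaged 47.5 CPM in floxed and 94.2 CPM in control DN3 cultures on day 7 (-0.99), while in DN1 cultures its difference of 0.15 did not pass, nor did that of -0.16 without library b. The difference between precursors passed for Foxm1 (1.14) and E2f2 (1.40), also without library b (0.84 and 1.16). Of 7 inhibitors of cyclin-dependent kinases, Cdkn1a, which encodes p21, averaged 19.3 CPM in floxed and 91.2 CPM in control DN3 cultures on day 5 (-2.24). It averaged 73.2 and 128 CPM in DN1 floxed and control cultures that day (-0.81). On DN3 day 7, Cdkn2b (2.77) and Cdkn2a (1.43) were higher in floxed cultures and Cdkn1b was lower (-0.49).

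Thymic ILC2 from dKO mice were set beside day 7 floxed cultures. They share the labelled floxed genes with these cultures but not the way of growth, the sort, the Cre or the sex. Xist stood at 0.315 to 0.321 CPM in thymic ILC2, against 1320 to 1630 in DN1 and 1750 to 1930 in DN3 floxed cultures. The Y-linked gene Ddx3y stood at 155 to 186 CPM, against at most 1.24 CPM in those cultures. Sex therefore cannot be told apart from the other differences in the values of the thymic libraries against cultures. In these libraries labelled dKO, Tcf3 averaged 8.94 CPM, against 27.6 CPM in DN1 and 23.9 CPM in DN3 floxed cultures, while Tcf12 was higher, at 275 CPM against 108 and 160 CPM (1.38 ± 0.11 and 0.82 ± 0.11). Counts per gene do not show whether the deleted exons are read. Thymocyte markers were present as well: Rag1, which cuts antigen receptor genes, stood at 88.7 to 90.8 CPM in thymic ILC2, against 2.18 to 4.56 CPM in DN1 and 2.67 to 12.9 CPM in DN3 floxed cultures. The 9 markers of DN thymocytes summed to 1130 to 1180 CPM in thymic ILC2, against 769 to 836 CPM in DN1 and 1510 to 1720 CPM in DN3 floxed cultures, with 7 higher and 2 lower against DN1 and 6 higher and 3 lower against DN3. The part of these markers in the values that follow was not tested. Summed over the 43 genes they stood at 16300 and 11300 CPM. Mki67 contributed 7540 and 4150 CPM to these sums, and 220 and 213 CPM to those of DN1 and 178 and 193 CPM to those of DN3 floxed cultures. Without Mki67 the sums were 8720 and 7190 CPM in thymic ILC2, 4340 and 4820 CPM in DN1 and 4150 and 3990 CPM in DN3 floxed cultures. On the scale of CPM per kb, the 43 summed to 2670 and 2030 in thymic ILC2, 1230 and 1430 in DN1 floxed and 1170 and 1130 in DN3 floxed cultures, and to 1920 and 1620 in thymic ILC2 without Mki67. The 10 ILC2 markers summed to 1270 to 2060 CPM in thymic ILC2, against 1470 to 1540 CPM in DN1 and 1080 to 1310 CPM in DN3 floxed cultures. Il1rl1 (263 to 585 CPM) and Il7r (411 to 581) stood above both floxed cultures, and Gata3 (142 to 221) and Icos (165 to 237) below both. Rora (276 to 420 CPM) lay between DN3 (175 to 231) and DN1 floxed cultures (557 to 604). Areg, Arg1 and Klrg1 did not exceed 7.26 CPM, and the cytokine genes Il13 (0 to 0.321 CPM) and Il5 (0 to 0.315 CPM) were near 0.

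The members split in both directions. Against DN1 floxed cultures 23 were higher and 13 lower in thymic ILC2, where 33.6% of tested genes were higher and 40.1% lower, with a median of 0.69, and 22 were higher and 10 lower without DN1 floxed library b. Against DN3 floxed cultures 24 were higher and 10 lower, where 33% were higher and 38.8% lower, with a median of 0.66. The 2 comparisons share the thymic ILC2 libraries. Of the 8 spindle genes 7 were higher and none lower against either culture, 3 of 4 checkpoint genes were higher, and all 3 anaphase genes were lower. Of the passenger complex, 3 of 4 were lower and Aurkb was higher. These libraries differed in length profile: the median log2 difference from DN1 floxed cultures over all tested genes was -2.01 for transcripts under 1 kb and 1.04 for those over 7 kb, and against DN3 it was -1.94 and 1.13. With a correction for transcript length the counts were 26 higher and 9 lower against DN1, and 27 higher and 8 lower against DN3. Another scaling (RLE, from the median ratio of each library to a common reference) put the median of all tested genes at 0.00 against DN1, where it stood at -0.26 with the scaling used here (TMM), and at 0.03 against DN3, where it stood at -0.20. The calls with RLE were 25 higher and 8 lower against DN1, and 27 higher and 6 lower against DN3.

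Gene by gene, the contrast was large. Birc5 had 24.4 and 25.2 CPM in thymic ILC2, against 326 and 382 CPM in DN1 and 312 and 297 CPM in DN3 floxed cultures (-3.79 ± 0.12 and -3.58 ± 0.12). Cdk1 had 37.6 and 61.2 CPM, against 355 and 416 CPM in DN1 and 337 and 284 CPM in DN3 floxed cultures (-2.93 ± 0.17 and -2.61 ± 0.17). With the length correction Birc5 was at -3.62 and -3.38 and Cdk1 at -3.06 and -2.71, so both stayed lower. Cdc20 (-2.83 and -2.19), Aurka (-2.51 and -2.29), Cdca8, which encodes borealin of the passenger complex (-2.37 and -2.11), and Plk1 (-2.45 and -2.18) were lower as well. Cenpa was lower by less (-0.49 and -0.40), and with RLE scaling (-0.19 and -0.07) it did not pass. Ube2c (-0.79 and -0.74) did not pass with RLE or with the length correction.

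Mki67 was higher by 4.79 ± 0.20 against DN1 and 5.01 ± 0.20 against DN3 floxed cultures, and by 3.53 and 3.79 with the length correction. Anln had 163 and 180 CPM in thymic ILC2, against 9.63 and 6.21 CPM in DN1 and 14.1 and 9.13 CPM in DN3 floxed cultures (4.47 ± 0.33 and 3.94 ± 0.32). Bub1 had 186 and 195 CPM, against 19.9 and 6.63 CPM in DN1 and 19.8 and 14.2 CPM in DN3 floxed cultures (3.87 ± 0.32 and 3.53 ± 0.31). No culture library reached the thymic ILC2 levels of these genes. Kif11 (3.44 and 3.25), Cenpe (3.25 and 3.28), Kif20b (3.21 and 3.35), Cenpf (2.94 and 3.06) and Kif4 (2.85 and 3.10) were higher too, and each passed with the length correction. Nusap1 (1.29 and 1.32) and Top2a (1.05 and 1.05) were higher by less. Bub1b (-0.04 and 0.12) did not pass, with 93.4 and 65.3 CPM in thymic ILC2, and Kif20a (-0.33 and 0.09) was lower against DN1 only, a call lost with RLE or the length correction.

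**Figure D5:**
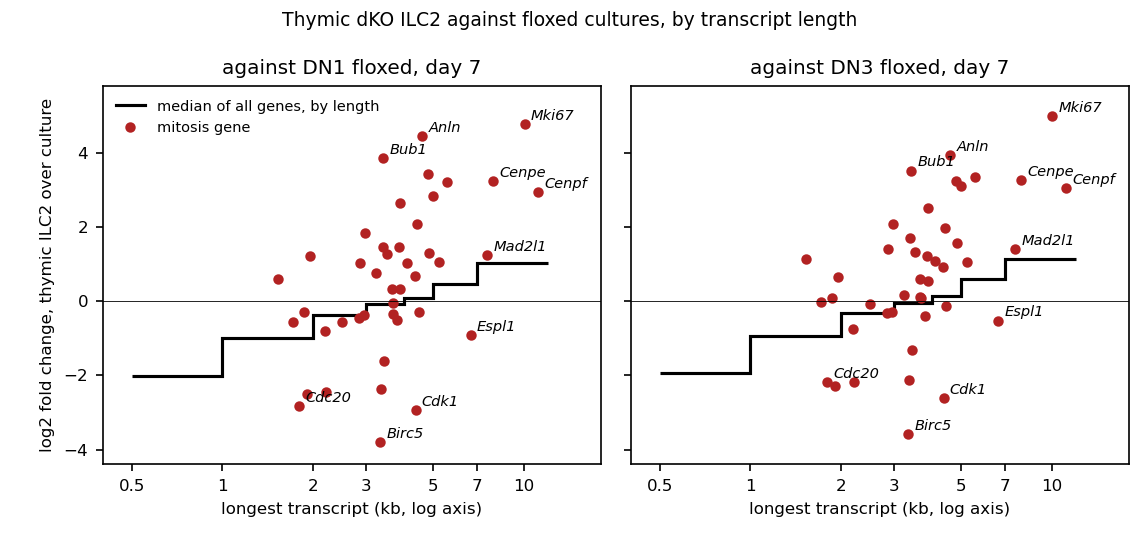
Log2 fold change of thymic ILC2 over day 7 floxed cultures (DN1 and DN3 panels) for each of the 43 genes against its longest transcript in kilobases (log axis), with steps marking the median of all tested genes in each length range. The steps climb from -2.01 to 1.04 against DN1, and Birc5 and Cdk1 lie far below them while Mki67, Anln and Bub1 lie far above.

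Lung ILC2 held little of these transcripts. The 43 genes summed to 374 and 814 CPM in lung dKO ILC2 and 401, 525 and 437 CPM in lung Id1 ILC2. Member counts were 2440 and 2505 in the dKO libraries and 5709, 4099 and 5797 in the Id1 libraries. Total counts were 5627406 and 3695522 in dKO, against 9671437 to 13065445 in Id1 libraries. Yet more genes had a count in dKO (29734 and 30196) than in Id1 libraries (22504 to 24722). Depth thus differed with the group, and its part in the values was not tested. Of the 40 members tested, 2 were higher in dKO and none lower, where 14.4% of the 19371 tested genes were higher and 3.66% lower. DESeq2 called 6 higher and 2 lower, and edgeR without the filter 3 higher and 1 lower. Summed markers of other cells stood apart between the groups: lung epithelium summed to 21.5 to 42.3 CPM in dKO and 1.73 to 4.63 in Id1, stroma to 60.1 to 123 and 3.37 to 21.3, B cells to 9.43 to 18.2 and 0.702 to 5.0, and muscle to 72.5 to 161 and 22.0 to 24.2. The epithelial sum in dKO was mostly Scgb1a1 (15.9 to 40.3 CPM), with Sftpc at 0 to 0.153 CPM. The muscle sum in dKO was mostly Ttn (61.3 to 139 CPM), with Acta1 at 0 to 0.325 CPM. The part of these markers in the member values was not tested. Ttk had 149 and 62 counts in dKO libraries, against 12, 12 and 16 counts in Id1 libraries (4.19 ± 0.74, adjusted p = 0.0182). Cenpf had 91 and 223 counts in dKO, against 120, 64 and 129 counts in Id1 libraries (2.32 ± 0.63, adjusted p = 0.0315). Ttk libraries did not overlap on the CPM scale, at 22.8 and 20.2 in dKO and 0.842, 1.54 and 1.21 in Id1, and Ttk passed without any 1 library. Cenpf did not pass without dKO library 3 (0.69) or without Id1 library 1 (2.35), 2 (2.33) or 3 (2.50), and the count of members was 7 without dKO library 1 and 1 without any other library. The biological coefficient of variation was 0.706 in lung libraries and 0.138 in cultures. Thymic and lung tables were fitted apart, and the level of Mki67 was 7540 and 4150 CPM in thymic dKO ILC2, against 48 and 128 CPM in lung dKO ILC2.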

How the data were processed

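RNA was measured by sequencing in 31 libraries, and the authors deposited raw read counts per Ensembl gene in separate tables for thymus and lung. Per the labels' protocols total RNA was extracted with Trizol and prepared by standard Illumina methods, and the submitters' processing notes name mm10 and DESeq2. The sources used here name no aligner, counter or strand setting. Gene names, positions and the longest transcript came from GENCODE M21 (GRCm38), which named 48664 of the 48881 gene IDs. Counts were fitted with edgeR 4.0.16 (R 4.3.3, quasi-likelihood test, TMM scaling, filterByExpr with a minimum count of 10) with 1 mean per group over all 24 culture libraries, over these plus thymic ILC2, or over the 5 lung libraries, and p-values were adjusted over all 15172, 16391 or 19371 tested genes. Calls are adjusted p under 0.05, two-sided, and ± marks the standard error of a log2 fold change. The residual degrees of freedom were 12, 13 and 3. CPM use TMM library sizes, and CPM per kb divide by the longest transcript. Alternatives were DESeq2 1.42.0, RLE scaling, no filter, only the compared groups, leaving out each library, a replicate block and a length correction, with a fit without day 4 libraries, and one of the other gene lists without DN1 floxed library b of day 7, added after seeing the data. A group left with 1 library was assumed to vary like the others. The script was tested on simulated data. The members and gene lists were chosen with earlier results of these data known. Named in each comparison are up to 10 called members with the largest log2 change and 8 anchors, the most abundant member of each role by mean culture CPM. Genes named for their replicates, or as lost or uncalled, were chosen after their values were seen.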

Additional observations from a re-analysis of the deposited data

Results flagged for a closer look

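A difference between precursors on day 7 passed its own test for 24 members, all with a less negative floxed over control change in DN1 than in DN3 cultures (log2 difference, edgeR quasi-likelihood test). The named genes were Ccnb2 (1.08), Cenpf (1.04), Prc1 (0.99), Cdc20 (0.95), Birc5 (0.92), Mki67 (0.92), Kif2c (0.88), Ccna2 (0.87), Spc25 (0.87), Pbk (0.86), Nusap1 (0.82), Top2a (0.67), Kif20a (0.59) and Cdk1 (0.55). DN1 floxed library b, which held 8730 CPM of skeletal muscle markers, is among the 8 libraries of that test, and 15 members passed without it.

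A difference between days 4 and 7 in the floxed over control change passed for 26 members in DN3 cultures, more negative on day 7 in each. The named genes were Nusap1 (-1.28), Cenpf (-1.27), Ttk (-1.24), Birc5 (-1.06), Kif20b (-1.03), Cenpe (-1.01), Prc1 (-0.97), Mki67 (-0.91), Aurka (-0.88), Tpx2 (-0.87), Bub1b (-0.76), Top2a (-0.65) and Kif20a (-0.55). In DN1 cultures it passed for 7 members: Kif11 (-1.02), Hmmr (-0.96), Nusap1 (-0.83), Bub1b (-0.61), Cenpe (-0.53), Kif23 (-0.52) and Cenpf (-0.41). Day 4 cells were not sorted for tdTomato and held 2370 to 11900 CPM of stromal markers, against 56.9 to 241 CPM later, and the part of this in the change was not tested.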

How the results depend on the processing

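Counts of called members are given per comparison. With only the compared groups in the fit the count was 0 for DN1 day 7 and for DN1 floxed day 7 over day 5, 0 for DN3 day 4, 1 for the DN1 change between days, 10 for the difference between precursors, 25 for DN1 control day 7 over day 5 and 35 for DN1 over DN3 controls on day 7. Without the filter it was 1 for DN1 day 4, 3 for DN3 day 4, 11 for the DN1 change and 4 in lung, where DESeq2 called 8. Leaving out 1 library gave 0 for DN1 day 4, 1 to 2 for DN1 day 5, 6 to 19 for DN1 day 7, 0 to 1 for DN3 day 4, 7 to 19 for DN3 day 5 and 34 to 37 for DN3 day 7. It gave 1 to 15 for the DN1 change, 14 to 19 for the DN3 change, 12 to 26 for the difference between precursors, 18 to 27 for DN1 floxed over time, 6 to 9 for DN1 control, 32 to 38 for DN3 floxed and 20 to 25 for DN3 control over time. It gave 31 to 34 and 12 to 18 for DN1 over DN3 controls on days 5 and 7, 32 to 38 and 31 to 34 for thymic ILC2 against DN1 and DN3, and 1 to 7 in lung. The cause of these shifts was not tested, beyond the fewer libraries in each. Among 2517 refitted values of named genes, 0 called values turned sign, 248 no longer passed and 25 newly passed. All other counts stayed within 1.5 times under DESeq2, RLE, no filter, the length correction and the fit without day 4 libraries. In lung, counts of 2440 to 5797 for all members together limit what can be seen.

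Nothing in the labels says what a culture letter marks, so letters were not taken to pair libraries. Deviations from group means for the same letter across days correlated at 0.28 to 0.34 in DN3 floxed cultures, over 0.1 in every pair of days, and at -0.32 to 0.23 in the other cultures, and at -0.37 to 0.23 between DN1 and DN3. With the letter as a replicate block the DN1 change gave 4 calls, the DN3 change 24, and day 7 over day 5 gave 30 and 14 in DN1 floxed and control and 39 and 29 in DN3 floxed and control cultures. Floxed and control cultures carry different letters, so no block could be fitted for them within a day.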

Other observations

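Plk1 was uneven between floxed replicates in the same way in every group, a gene chosen after its values were seen. Library b over library a was 1.72, 4.8 and 4.21 in DN1 floxed cultures on days 4, 5 and 7, and 3.9, 3.9 and 2.99 in DN3 floxed cultures. The floxed libraries held 117 and 202 CPM on DN1 day 4 and 80.9 and 315 CPM on DN3 day 4, against 278 and 296 CPM and 479 and 450 CPM in controls, so all 4 floxed values of that day lay below their controls. On day 5 they held 54.6 and 262 CPM in DN1 and 76.5 and 298 CPM in DN3 floxed cultures, against 484 and 473 CPM and 761 and 600 CPM in controls. Of 15172 tested genes, 14 had a at least 1.5-fold below b in all 6 floxed groups and 13 had a above b, against 1 and 2 genes for c and d in the control groups. Plk1 was the only member among the 14, and no member was among the 13. The letters run across both precursors and all days, and what else they share is not given in the labels.

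In DN1 floxed cultures on day 7, library b over a ran from -1.68 (Nek2) to 2.06 (Plk1) over the members on the log2 scale, with a median of 0.00. The lower and upper quartiles of all tested genes were -0.39 and 0.35 in that group.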
